A study of Lytechinus variegatus with 23 samples.

Results

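MyoR2 and Mlcka, a transcription factor gene and a myosin light chain kinase gene, are described here across normal and alizarin-exposed sea urchin embryos, together with the other genes whose names begin with MyoR, MyoD, Mlck, Tnn, Tpm or Mhc. MyoR2 (L_var_25173) and Mlcka (L_var_02450) were chosen by ID because their transcripts were lower under alizarin, so their alizarin values are given as a description with no test. The other 11 IDs were found by the name of their matched gene in another urchin, Strongylocentrotus purpuratus. This gave 13 IDs of the 27231 with readable counts. By name start, 1 was a MyoR, 3 were MyoD, 6 were Mlck, 1 was Tnn, 2 were Tpm and 0 were Mhc.

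Whole Lytechinus variegatus embryos were sampled at 12, 18, 24 and 30 hours post fertilisation (hpf), either as controls or after exposure to alizarin, a calcium-binding dye that stains mineralised skeleton. The 8 groups held 3 libraries each, named A, B and C, except alizarin at 18 hpf, which held 2 (B and C), so there were 23 mRNA sequencing libraries. The labels give no strain, no vehicle for the controls, no dose and no start of exposure, and they do not say whether the letters are separate cultures or crosses. Each p-value below is therefore set by how far libraries of a group differ, and that spread may be technical. Total counts per library ranged from 8194215 to 11730004.

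Sea urchin larvae form bands of muscle around the oesophagus from mesodermal cells that leave the coelomic pouches at the tip of the gut. In vertebrates, MyoD is a basic helix-loop-helix activator that commits cells to muscle, and MyoR (musculin) is a related factor that can restrain it. Myosin light chain kinase, switched on by calcium and calmodulin, phosphorylates the regulatory light chain of myosin II and so starts contraction in smooth muscle, and it also acts in non-muscle cells that move or change shape.

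The names do not all point to muscle. Tnni3k_1 (L_var_23577) is named for a kinase that binds cardiac troponin I, and Tpmtl (L_var_05309) and Tpmtl_1 (L_var_07214) are named for thiopurine methyltransferase, a drug-metabolising enzyme. No ID that the name search found is a troponin, a tropomyosin or a myosin heavy chain. Those proteins carry other names in this table and are described below in a list of contractile genes. Of the 13 IDs, 10 had enough reads to be tested, among them 8 of the 11 chosen by name. The other 3 never reached 1 CPM (read counts scaled to library size) in any group mean and are a further Mlcka (L_var_21727, 27 reads in all), MyoD2 (L_var_26701, 18 reads) and MyoD3 (L_var_13093, 90 reads).

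One library stands apart and touches several results. Alizarin 24 hpf C held 1 read of MyoR2, 0 of MyoD and 28 of Mlckb, where alizarin 24 hpf A and B held 14 and 13, 15 and 67, and 211 and 272. Across genes, its log2 CPM correlated most closely with control 18 hpf C (Pearson r = 0.968) and alizarin 30 hpf C (0.963), and less with alizarin 24 hpf A (0.916) and B (0.920), its labelled partners. Values without it are given where it moves a result.

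MyoR2 was almost silent until 18 hpf, came on in controls by 24 hpf and stayed low under alizarin. In controls it was read 0, 0 and 3 times at 12 hpf and 1, 3 and 6 times at 18 hpf. At 24 hpf the control libraries A, B and C held 24.4, 19.1 and 30.5 CPM. At 30 hpf they held 15.9, 9.58 and 17.9 CPM, all below the lowest 24 hpf control. Under alizarin it was not read at 12 hpf (0 reads in 3 libraries, which allows up to 0.0902 CPM) and was read 1 time in each of the 2 libraries at 18 hpf. Alizarin libraries A, B and C held 1.05, 1.0 and 0.108 CPM at 24 hpf, and 4.32, 0.228 and 1.59 CPM at 30 hpf. Every alizarin library at 24 and 30 hpf was thus below every control library of its time.

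The group means of MyoR2 followed the order control 24 hpf (24.7 ± 5.7 CPM, SD, n = 3), control 30 hpf (14.4 ± 4.32), alizarin 30 hpf (2.04 ± 2.08) and alizarin 24 hpf (0.721 ± 0.532), with the earlier groups at or below 0.345 CPM. The ranges of the 2 alizarin groups overlapped each other, and those of the earlier groups could not be separated at these read counts. Summed over libraries, 765 control reads stood against 28 alizarin reads at 24 hpf, a depth-adjusted ratio of 30.9 (95% interval 21.2 to 46.9, which covers counting error only). At 30 hpf 389 stood against 42, a ratio of 7.93 (5.76 to 11.2). The fitted log2 fold change, alizarin minus control, was −5.02 (SE 0.85) at 24 hpf and −2.86 (SE 0.78) at 30 hpf. The 30 hpf value rests on uneven alizarin libraries, being −3.99 without alizarin 30 hpf A and −2.30 without B. The rise in controls between 18 and 24 hpf came to 6.23 (SE 0.93) on the log2 scale and, since it uses the control libraries of the selecting contrast, is likewise given without a test. From 12 to 18 hpf, which the choice did not use, no change was detectable (log2 fold change 1.32, SE 1.29, edgeR quasi-likelihood adjusted p = 0.545).

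**Figure D1:**
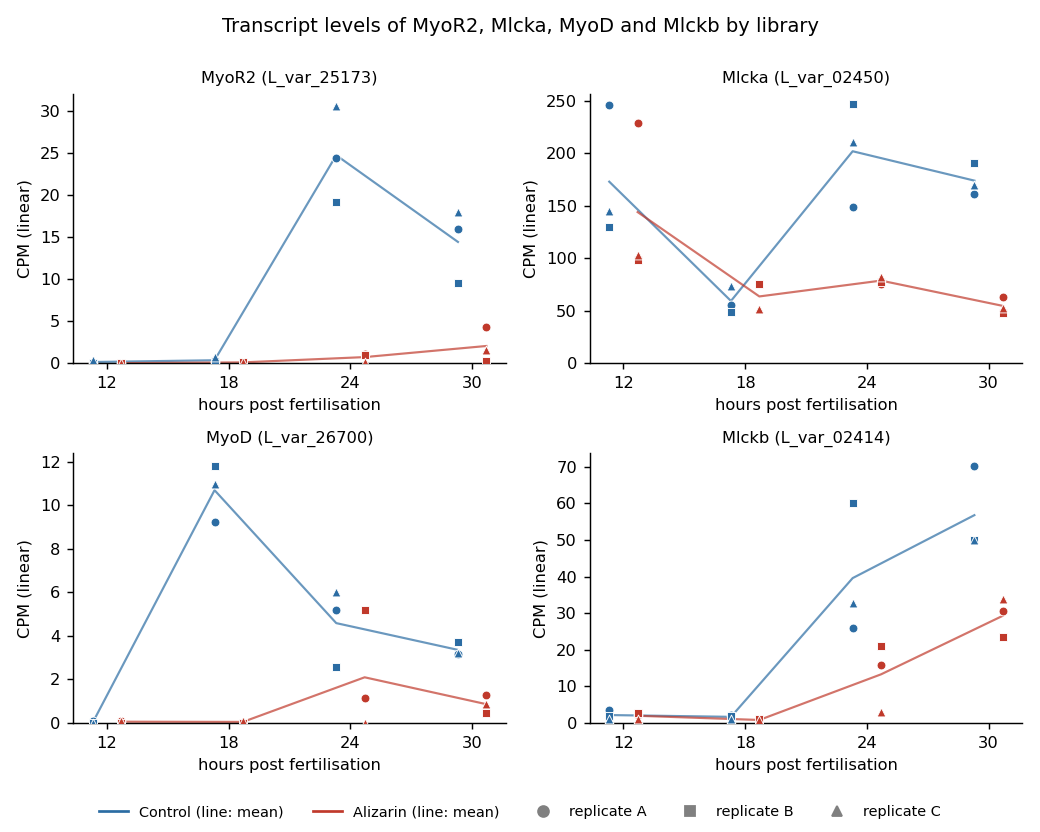
CPM in each library (linear axis) against hours post fertilisation for MyoR2, Mlcka, MyoD and Mlckb, with controls in blue and drawn left of each time, alizarin in red and drawn right of it, markers for replicates A, B and C, and lines through the group means. MyoR2 is at 19.1 to 30.5 CPM in control 24 hpf libraries and at 0.108 to 1.05 in alizarin ones, while MyoD is at 9.25 to 11.8 CPM in controls at 18 hpf and close to 0 under alizarin.

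MyoD (L_var_26700), the only one of the 3 MyoD-named IDs with enough reads to test, appeared earlier than MyoR2. Controls held 1 read in 3 libraries at 12 hpf and 9.25, 11.8 and 11.0 CPM in A, B and C at 18 hpf. This rise passed the test (log2 fold change 7.75, SE 1.21, edgeR adjusted p = 0.000191), and the depth-adjusted ratio of summed reads was 278 (95% counting interval 49.5 to 11000). The control level was then 5.19, 2.56 and 6.02 CPM at 24 hpf and 3.15, 3.7 and 3.22 CPM at 30 hpf, and neither step passed the test (edgeR adjusted p = 0.398 and 0.834).

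Under alizarin the 18 hpf MyoD signal was not seen. Libraries B and C held 0 and 1 read, against 117, 148 and 92 reads in controls A, B and C, so the groups were far apart. The depth-adjusted ratio of control to alizarin reads was 230, with a counting interval of 41.1 to 9130. The fitted log2 fold change of −7.50 (SE 1.38) had an unadjusted p of 2.43e-05 but did not pass after adjustment over all genes (edgeR adjusted p = 0.224), in a comparison with 2 alizarin libraries in which edgeR called 0 of 18419 genes (0.0%). DESeq2 called it (adjusted p = 0.00468), where it called 0.229% of all genes lower. A fold change against a group with 1 read depends on the prior count, so the read ratio is given beside it.

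At 24 hpf alizarin libraries A, B and C held 1.13, 5.17 and 0 CPM of MyoD, and library B lay within the control range. The difference did not pass (log2 fold change −1.10, SE 0.77, edgeR adjusted p = 0.632) and was −2.91 without alizarin 24 hpf B and −0.54 without C. At 30 hpf the alizarin values of 1.28, 0.456 and 0.855 CPM were all below the lowest control value of 3.15. The log2 fold change there was −1.97 (SE 0.85, edgeR adjusted p = 0.232). Over the 4 times together it was −2.51 (SE 0.94, adjusted p = 0.125), with adjusted p = 0.0488 without alizarin 24 hpf B, 0.0409 without alizarin 24 hpf C and 0.00312 by DESeq2. Over the 23 fits with a library left out, that adjusted p ran from 0.0409 to 1.0. A difference of the alizarin effect between times did not pass either (edgeR adjusted p = 0.154).

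Mlcka had another course and was well read at 12 hpf, when MyoR2 and MyoD had at most 3 reads a library. In controls it stood at 246, 130 and 145 CPM at 12 hpf in A, B and C, fell to 55.6, 48.5 and 73.9 CPM at 18 hpf, and stood at 149, 247 and 211 CPM at 24 hpf and 161, 191 and 170 CPM at 30 hpf. The fall from 12 to 18 hpf passed the test (log2 fold change −1.55, SE 0.32, edgeR adjusted p = 0.00229) and did so with each library left out (−1.74 to −1.21, adjusted p at most 0.0175). Alizarin libraries held 229, 98.8 and 103 CPM at 12 hpf and 75.3 and 51.9 CPM at 18 hpf, overlapping the controls at both times. They then held 75.9, 77.8 and 82.3 CPM at 24 hpf and 63.5, 47.4 and 52.8 CPM at 30 hpf. At these later times every alizarin library was below every control library.

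Described without a test, the fitted log2 fold changes of Mlcka under alizarin were −0.27 (SE 0.31) at 12 hpf, 0.10 (SE 0.35) at 18 hpf, −1.36 (SE 0.32) at 24 hpf and −1.67 (SE 0.32) at 30 hpf. The control step from 18 to 24 hpf was 1.77 (SE 0.32). By mean, the groups ran from control 24 hpf (202 ± 49.5 CPM, SD, n = 3) through control 30 hpf (174 ± 15.2), control 12 hpf (173 ± 62.9) and alizarin 12 hpf (144 ± 73.8), each overlapping the next. Below them came alizarin 24 hpf (78.7 ± 3.31), alizarin 18 hpf (63.6 ± 16.6, n = 2), control 18 hpf (59.3 ± 13.1) and alizarin 30 hpf (54.6 ± 8.17), of which the last 3 overlapped. The alizarin libraries at 30 hpf overlapped the controls at 18 hpf, and those at 24 hpf lay just above them.

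The other kinase genes differed from Mlcka in timing. Mlckb (L_var_02414) was low in controls at 18 hpf, with 2.06, 1.92 and 1.07 CPM in A, B and C. It stood at 25.9, 60.2 and 32.8 CPM at 24 hpf and at 70.2, 50.0 and 50.1 CPM at 30 hpf. The rise from 18 to 24 hpf passed the test (log2 fold change 4.52, SE 0.58, edgeR adjusted p = 9.32e-05). Under alizarin it stood at 0.957 and 0.690 CPM at 18 hpf, 15.9, 21.0 and 3.03 CPM at 24 hpf, and 30.5, 23.4 and 33.8 CPM at 30 hpf. All alizarin libraries at 24 and 30 hpf were below all controls of the same time, but neither difference passed. The log2 fold change was −1.57 at 24 hpf (SE 0.50, edgeR adjusted p = 0.164), or −1.10 without alizarin 24 hpf C, and −0.96 at 30 hpf (SE 0.49, adjusted p = 0.337). Over the 4 times it was −0.93 (SE 0.28, edgeR adjusted p = 0.0603, and 0.0189 by DESeq2).

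MlckL (L_var_02412) rose in controls with MyoD, from 1.28, 0.389 and 2.02 CPM at 12 hpf to 10.6, 6.88 and 6.69 CPM at 18 hpf (log2 fold change 2.7, SE 0.49, edgeR adjusted p = 0.0008). Its alizarin libraries at 24 hpf (13.2, 18.0 and 7.91 CPM) overlapped the controls (9.21, 11.3 and 6.12 CPM). At 30 hpf they held 7.84, 7.64 and 8.31 CPM, below the controls at 13.5, 12.6 and 12.7 CPM (log2 fold change −0.71, SE 0.44, edgeR adjusted p = 0.451). The second MlckL (L_var_02413) had group means of 0.125 to 2.28 CPM and no call. Mlck_1 (L_var_11833) was called lower in controls at 18 hpf (edgeR adjusted p = 0.0221) from 30, 0 and 4 reads at 12 hpf against 0 in all 3 libraries at 18 hpf. That call was lost in 4 of 6 fits with a library left out (adjusted p up to 0.159, without control 12 hpf A). Mlck_1 had enough reads to be tested only through 12 hpf libraries, so this test is not independent of its inclusion. The IDs of Mlckb and of the MlckL pair are consecutive, and the table gives no positions, so reads of 1 gene may be split among them.

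At 30 hpf the replicate letters marked libraries that deviated together (correlation of deviations 0.503, 0.663 and 0.570 for A, B and C). A model of the 30 hpf libraries alone with the letter as a block, chosen after the data were seen, called MyoD (edgeR adjusted p = 0.00194), Mlckb (0.000731) and MlckL L_var_02412 (0.0131) lower under alizarin. That model called 18.3% of all genes it tested lower, and these 3 calls are to be read against that share. It filtered genes anew on the 30 hpf libraries, so not all 8 name-chosen genes were tested in it. Without the block, the same libraries alone called MyoD (0.0239) and Mlckb (0.0265), where 8.39% of all genes were called lower.

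Counted together over all libraries, 0 of the 8 testable name-chosen genes passed the edgeR test for alizarin against control at any time, against 0.0977% of all genes at 12 hpf, 0.0% at 18 hpf, 0.842% at 24 hpf, 3.32% at 30 hpf and 5.04% over the 4 times. At an unadjusted p under 0.05 there were 1 higher and 1 lower at 12 hpf and again at 18 hpf, 1 lower at 24 hpf, 1 lower at 30 hpf, and 1 higher and 3 lower over the 4 times. DESeq2 called 1 lower at 12 hpf (Tpmtl, against 2.57% of all genes), 1 lower at 18 hpf (MyoD), 0 at 24 hpf (2.75% of all genes in either direction) and 30 hpf (6.48%), and 3 lower over the 4 times (MyoD, Mlckb and Tpmtl, against 5.87% of all genes). In normal development, 2 rose (MyoD and MlckL) and 1 fell (Mlck_1, with the limits given above) from 12 to 18 hpf, where 14.9% of all genes changed. From 18 to 24 hpf 1 rose (Mlckb), where 4.98% of all genes changed, and from 24 to 30 hpf 0 passed, against 0.928%, with 0 also at an unadjusted p under 0.05 and by DESeq2 (2.76% of all genes).

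**Figure D2:**
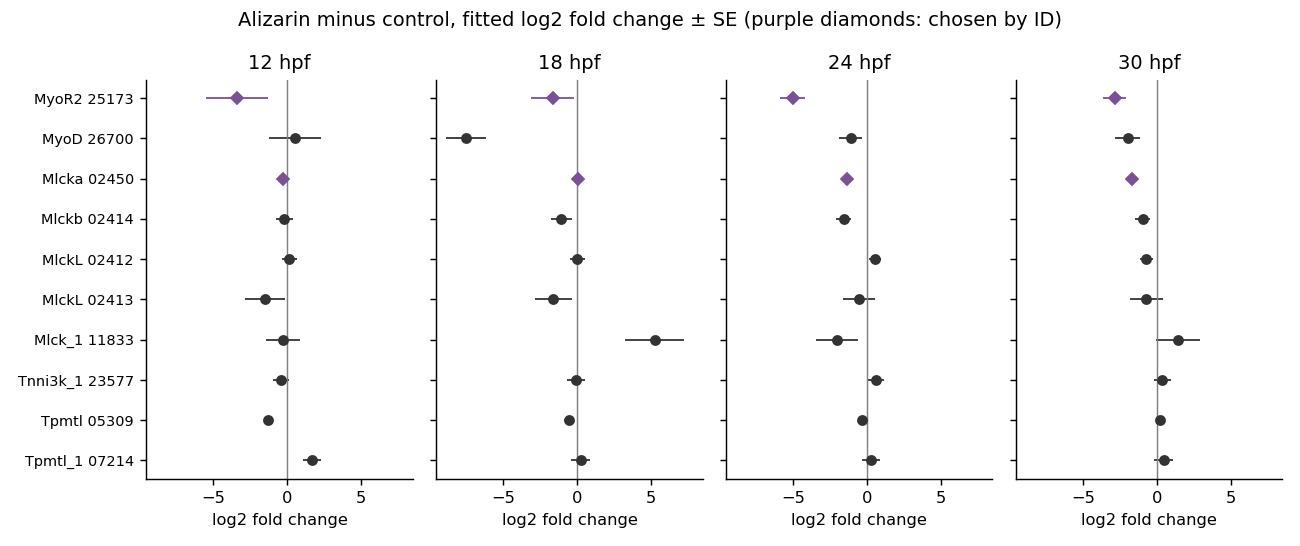
Fitted log2 fold change of alizarin minus control (point) with its standard error (bar) for the 10 testable genes at 12, 18, 24 and 30 hpf, where purple diamonds are the genes chosen by ID and black circles those chosen by name. MyoR2 is at −5.02 and −2.86 and Mlcka at −1.36 and −1.67 at 24 and 30 hpf, and the black point farthest left is MyoD at 18 hpf (−7.50).

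The name matches that are not muscle proteins showed no shared course. Tpmtl held 7.88, 14.5 and 14.2 CPM under alizarin at 12 hpf against 23.5, 37.8 and 28.1 CPM in controls. That difference did not pass over all libraries (log2 fold change −1.29, SE 0.29, edgeR adjusted p = 0.0662), and did without control 12 hpf A (0.0159) and by DESeq2 (0.00246). Tpmtl_1 had a log2 fold change of 1.71 at the same time (edgeR adjusted p = 0.186), with 256 reads in alizarin 12 hpf B and 67 and 19 in A and C. Tnni3k_1 had group means of 0.639 to 1.04 CPM and no call in any comparison.

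Contractile genes under their own names were read as a list of 30 IDs, 24 of them testable. In controls 11 rose from 12 to 18 hpf and 6 rose from 18 to 24 hpf, with 0 falling at either step, where 8.46% and 4.02% of all genes rose. Between alizarin and control, 2 were lower at 24 hpf, 4 at 30 hpf and 6 over the 4 times, and 0 were higher, where 0.722%, 2.20% and 2.93% of all genes were lower. Each count of lower genes includes Myl9 (L_var_25701), which was testable only through the control libraries at 24 and 30 hpf. With a library left out, the count was 1 in every fit at 24 hpf and 0 or 1 at 30 hpf (0 without alizarin 30 hpf A or B), and it was 2 over the 4 times without alizarin 18 hpf B. The blocked model of the 30 hpf libraries called 14 of 22 lower and 2 higher, against 18.3% and 15.2% of all genes. The list's median log2 fold change was −0.64 at 24 hpf and −0.81 at 30 hpf, against 0.02 and 0.03 over all genes. The summed level of the list was 2890 to 4670 CPM in control and 1850 to 2070 CPM in alizarin libraries at 24 hpf, and 3960 to 4970 against 2770 to 3620 CPM at 30 hpf. A few abundant genes set these sums. At 24 hpf Msclact (L_var_19627) alone held 437 to 2280 CPM in control and 86.5 to 95.1 CPM in alizarin libraries. Tropmy1 (L_var_09961) had group means of 937 and 944 CPM there. In whole embryos, fewer cells of a type and less RNA per cell cannot be told apart.

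Msclact (L_var_19627), named for muscle actin, also came on between 18 and 24 hpf. It held 2.45, 1.52 and 3.22 CPM in controls A, B and C at 18 hpf and 437, 2280 and 1530 CPM at 24 hpf, a rise that passed the test (log2 fold change 9.22, SE 0.63, edgeR adjusted p = 4.53e-08). Under alizarin it held 95.1, 89.1 and 86.5 CPM at 24 hpf, all below the lowest control (log2 fold change −3.97, SE 0.49, edgeR adjusted p = 0.000281). The call was kept with each of the 6 libraries left out (adjusted p at most 0.00701). At 30 hpf alizarin libraries held 617, 221 and 424 CPM and controls 1090, 919 and 1090 CPM. That difference did not pass (log2 fold change −1.30, SE 0.44, edgeR adjusted p = 0.119), nor did the one over the 4 times (−1.50, SE 0.51, adjusted p = 0.0892). Another Msclact (L_var_25572) was lower over the 4 times (−0.65, SE 0.15, edgeR adjusted p = 0.017, and 0.0644 without alizarin 18 hpf B), and because actin genes are near-identical copies, reads may be split between them.

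Some genes that the kinases act on or through were called. The Mrlc and Myl9 IDs below belong to the contractile list too, so their calls are already in its counts. Myl9 (L_var_25701), a myosin regulatory light chain, had 38 control reads and 1 alizarin read at 24 hpf and 88 against 3 at 30 hpf (edgeR adjusted p = 0.0454 and 0.02). These calls rest on few reads and were lost in 6 of 6 and 5 of 6 fits with a library left out. This Myl9 had enough reads to be tested only through the control libraries at 24 and 30 hpf. Its tests at those times are thus not independent of its inclusion. The other Myl9 (L_var_25700) had far more reads, with group means of 159 to 703 CPM, and did not pass at either time. Its log2 fold change was −0.33 (SE 0.25, edgeR adjusted p = 0.676) at 24 hpf and −0.31 (SE 0.25, adjusted p = 0.602) at 30 hpf. Mrlc (L_var_20118) is a light chain gene with far more reads than Myl9 L_var_25701. At 24 hpf it stood at 92.3, 104 and 48.7 CPM under alizarin against 216, 323 and 196 CPM in controls. These did not overlap, but the difference did not pass (log2 fold change −1.59, SE 0.59, edgeR adjusted p = 0.266). Mrlc passed over the 4 times (log2 fold change −1.33, SE 0.32, edgeR adjusted p = 0.0198), and not without alizarin 18 hpf B (0.0809). Its largest fold change at a single time was at 12 hpf (−2.30, SE 0.69, edgeR adjusted p = 0.131). Calm2 (L_var_13375), a calmodulin, was lower over the 4 times (−0.66, SE 0.14, edgeR adjusted p = 0.00943). Together with Rock and RhoA, which act on the same light chain, these made a list of 8 IDs, all testable, in which 1 was lower at 24 hpf, 1 at 30 hpf and 3 over the 4 times (Calm2, Mrlc and Myl9), with 0 higher, where 0.722%, 2.20% and 2.93% of all genes were lower. The Myl9 in these calls was L_var_25701, the only gene of this list called at 24 or at 30 hpf. Its call over the 4 times was lost in 10 of 23 fits with a library left out.

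Among structural and cytoskeletal members, Actinin (L_var_13521), a crosslinker of actin filaments, held 30.9, 37.3 and 42.4 CPM under alizarin at 30 hpf against 77.2, 51.9 and 67.0 CPM in controls (log2 fold change −0.83, SE 0.22, edgeR adjusted p = 0.0469). Myh9/Myh10/Myh11 (L_var_17776), a non-muscle and smooth muscle type of myosin heavy chain, held 25.6, 30.2 and 34.6 CPM against 70.5, 94.8 and 65.0 CPM at that time (−1.35, SE 0.29, adjusted p = 0.0129). SmtnL (L_var_05574), named for smoothelin, was at 2.42 ± 1.21 CPM (SD, n = 3) against 8.43 ± 2.26 CPM (−1.82, SE 0.50, edgeR adjusted p = 0.0497). These Actinin and SmtnL calls at 30 hpf were lost in 6 of 6 fits with a library left out, and the Myh9/Myh10/Myh11 call in 3 of 6. Over the 4 times Actinin L_var_13521 was also lower (−0.55, SE 0.12, edgeR adjusted p = 0.0104). It kept that call in all 23 fits with a library left out (adjusted p at most 0.0314). The other Actinin (L_var_13522) was lower over the 4 times too (−0.47, SE 0.11, edgeR adjusted p = 0.0204). Tagln2 (L_var_18432), a transgelin that binds actin, was lower over the 4 times (−1.01, SE 0.22, edgeR adjusted p = 0.0127, and 0.0561 without alizarin 18 hpf B).

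**Figure D3:**
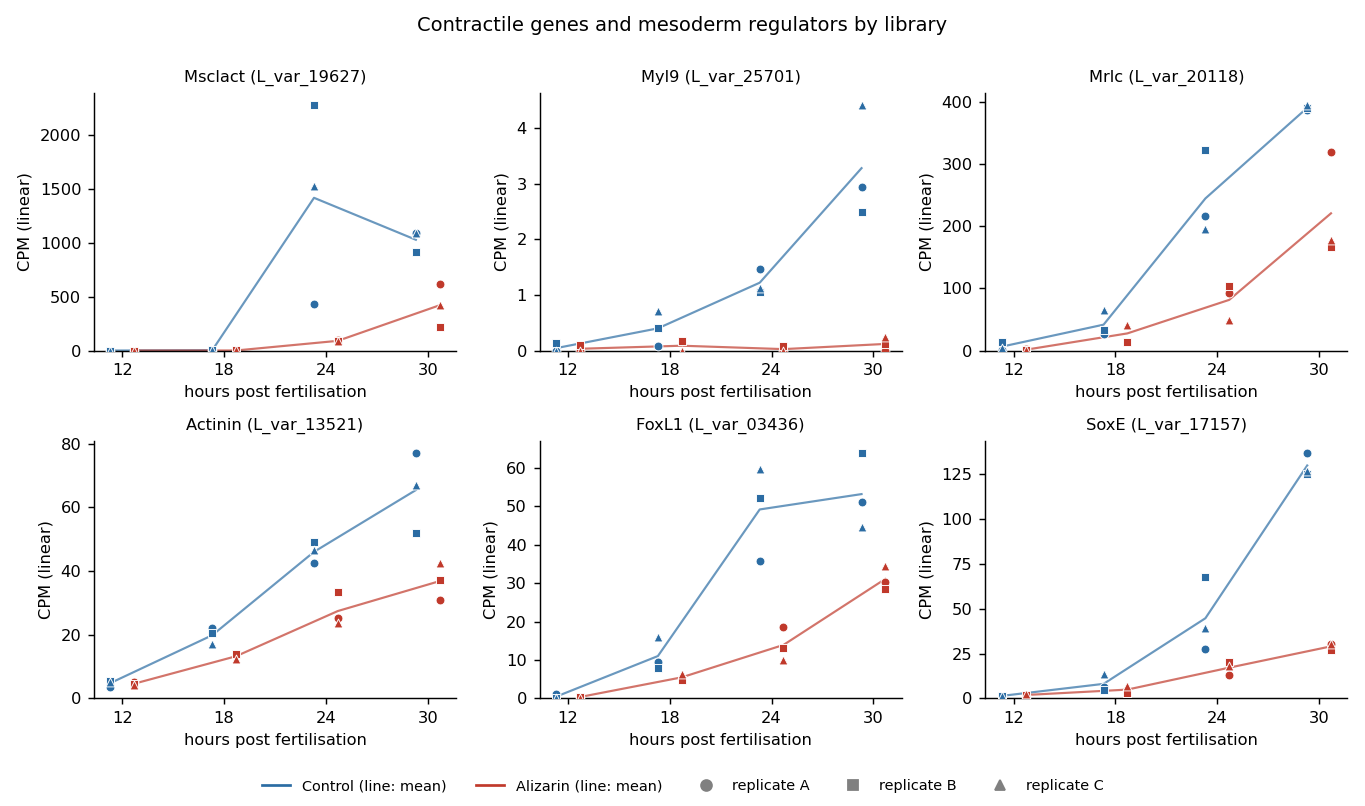
CPM in each library (linear axis) against hours post fertilisation for 4 contractile genes and the mesoderm regulators FoxL1 and SoxE, with controls in blue and drawn left of each time, alizarin in red and drawn right of it, markers for replicates A, B and C, and lines through group means. Msclact reaches 437 to 2280 CPM in control 24 hpf libraries and 86.5 to 95.1 CPM in alizarin ones, and SoxE reaches 125 to 137 CPM in control 30 hpf libraries and 26.7 to 30.4 CPM in alizarin ones.

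Troponin, tropomyosin, titin and muscle-named myosin heavy chain genes are named here for their identity and after their values were seen. TropT (L_var_16315), named for troponin T of striated muscle, had 0 reads in all 23 libraries, and the other TropT (L_var_16212) had 0 to 6 reads a library. Tropmy1 (L_var_09961), a tropomyosin, was abundant at every time, with group means of 937 to 1470 CPM, and had log2 fold changes of 0.01 (SE 0.24, edgeR adjusted p = 0.993) at 24 hpf and −0.19 (SE 0.24, adjusted p = 0.756) at 30 hpf. The Trop1 pair rose in controls from 12 to 18 hpf (L_var_16307, log2 fold change 2.46, SE 0.38, edgeR adjusted p = 0.000168; L_var_16220, 2.38, SE 0.48, adjusted p = 0.00186). At 30 hpf Trop1 L_var_16307 held 10.1, 11.1 and 12.6 CPM under alizarin and 15.6, 25.7 and 17.1 CPM in controls (−0.79, SE 0.34, edgeR adjusted p = 0.24). Trop1 L_var_16220 held 6.08, 6.50 and 5.74 CPM against 15.0, 13.2 and 11.0 CPM (−1.09, SE 0.44, edgeR adjusted p = 0.191). Neither difference passed, though the groups did not overlap. Titin (L_var_02494) had group means of 0.773 CPM under alizarin and 5.03 CPM in controls at 30 hpf, a difference that did not pass (−2.68, SE 0.91, edgeR adjusted p = 0.12). Myh1l (L_var_26522), named for a myosin heavy chain, had the opposite sign, with group means of 2.46 CPM under alizarin and 0.470 CPM in controls at 30 hpf, and did not pass either (2.33, SE 1.01, edgeR adjusted p = 0.24). Myh3L (L_var_11276), also so named, had group means of 0.158 CPM at most.

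Regulators of the mesoderm made a list of 20 IDs, 16 of them testable. The list is not limited to the mesoderm that forms muscle. It holds Gcm, GataC and Scl, which also serve below as pigment and blastocoelar markers. From 12 to 18 hpf 6 rose and 4 fell in controls, where 14.9% of all genes changed, and from 18 to 24 hpf 3 rose, where 4.02% of all genes rose. Under alizarin 1 was lower at 24 hpf, 1 at 30 hpf and 3 over the 4 times, where 0.722%, 2.20% and 2.93% of all genes were lower. FoxL1 (L_var_03436), a forkhead factor, was lower under alizarin at 24 hpf with 18.5, 13.1 and 9.96 CPM against 35.7, 52.1 and 59.8 CPM (log2 fold change −1.82, SE 0.38, edgeR adjusted p = 0.0253), the only call of the list at that time. That call was lost in 5 of 6 fits with a library left out. SoxE (L_var_17157), a Sox factor of the coelomic pouch in urchins, was lower at 30 hpf with 30.4, 26.7 and 30.1 CPM against 137, 125 and 127 CPM (−2.16, SE 0.38, edgeR adjusted p = 0.00385). It kept its call with each of the 6 libraries left out (adjusted p at most 0.0309). Over the 4 times FoxL1, SoxE and Gcm, the pigment cell regulator, were lower and 0 were higher, but FoxL1 did not pass without control 12 hpf A (−0.59, edgeR adjusted p = 0.308) or alizarin 18 hpf B (0.0514), and the Gcm call was lost in 7 of 23 fits with a library left out. At 30 hpf the blocked model of those libraries called 7 of 13 lower and 2 higher, against 18.3% and 15.2% of all genes. The list's median was −0.77 at 24 hpf and −0.29 at 30 hpf.

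**Figure D4:**
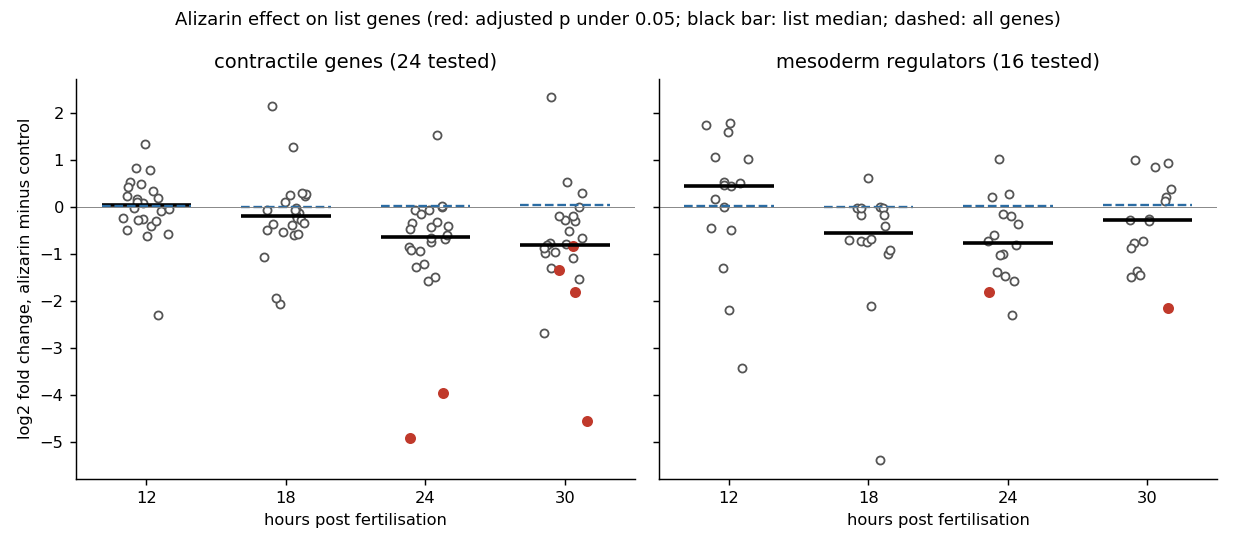
Log2 fold change of alizarin minus control (vertical axis) for each testable gene of the contractile list (24 genes, left) and the mesoderm regulator list (16 genes, right) at 12, 18, 24 and 30 hpf, with red points for an edgeR adjusted p under 0.05, black bars for the list median and dashed lines for the median of all genes. The contractile median is −0.64 at 24 hpf and −0.81 at 30 hpf while the dashed lines lie at 0.02 and 0.03.

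Few genes of the other lists were called. Of 22 muscle membrane and calcium IDs only 11 were testable, and 1 was called under alizarin, Dysf (L_var_19832), a membrane repair protein, over the 4 times (log2 fold change −0.74, SE 0.20, edgeR adjusted p = 0.0365), where 5.04% of all genes changed. That call was lost in 14 of 23 fits with a library left out. Of 8 Hedgehog, Fgf and Notch genes 1 was called at a single time, Ptc (L_var_19204), the Hedgehog receptor and itself a target of Hedgehog signalling, at 30 hpf with 15.4, 17.9 and 18.1 CPM under alizarin and 39.7, 51.2 and 30.0 CPM in controls (−1.23, SE 0.32, edgeR adjusted p = 0.039), where 3.32% of all genes changed. That call was lost in 6 of 6 fits with a library left out.

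Summed levels of skeletogenic and of pigment and blastocoelar markers were lower under alizarin at 24 and 30 hpf. A few abundant genes can set such sums, so calls are given beside them. The summed level of 20 skeletogenic IDs was 9060 to 14000 CPM in control and 2350 to 3430 CPM in alizarin libraries at 24 hpf, and 9890 to 12400 against 2580 to 5580 CPM at 30 hpf. Of the 19 testable among them, 5 were called lower and 1 higher at each of these times, where 0.842% and 3.32% of all genes changed. For 12 pigment and blastocoelar IDs the summed level was 2360 to 3120 against 1030 to 1560 CPM at 24 hpf and 1240 to 1540 against 530 to 1020 CPM at 30 hpf. Of these 12, all testable, 0 were called at 24 hpf, and 2 were called lower and 0 higher at 30 hpf. Their log2 fold change was below 0 for 10 at 24 hpf and for 9 at 30 hpf. The sums of 17 coelom and small micromere IDs overlapped at 24 hpf (353 to 534 against 460 to 598 CPM). At 30 hpf they were higher under alizarin (264 to 283 against 336 to 440 CPM). Of 11 testable IDs, 2 were called higher and 0 lower at 30 hpf, where 3.32% of all genes changed. The median log2 fold change of these IDs was −0.13 at that time. Gut sums overlapped (2100 to 3090 against 1330 to 2780 CPM at 24 hpf), as did neural sums at that time (213 to 283 against 277 to 290 CPM). Several Nanos2 IDs of the coelom list were at 0 reads in every group, and no skeletogenic, pigment or gut marker was at 0 at 24 or 30 hpf. The part of these other cell types in the MyoR2, Mlcka and contractile values was not tested.

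Likeness over the 23 libraries set MyoR2 and Mlcka apart from each other (Pearson r of log2 CPM = 0.42, with time, treatment and depth shared by all points). Among the name-chosen genes, MyoR2 was most like Mlckb (0.84) and then MyoD (0.61), while Mlcka was at 0.29 with Mlckb and −0.05 with MyoD. Over all named genes, those most like MyoR2 were Slc39a12_2 (0.93), Acad (0.92), MucL_5 (0.91), Mpdz-3 (0.91) and Cltc (0.91). Among those most like Mlcka were Colp4a_2 (0.91), Colp3a (0.90), Colp4a_1 (0.89) and TchhL (0.88), of which the first 3 carry collagen names.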

How the data were processed

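The authors deposited raw counts of reads for each gene and library. STAR 2.7.1a is the aligner named in the submitters' processing notes; build, annotation and counting tool are not given in the sources used here. Repeated lines (109578 in all) were reduced to 27232 IDs, 1 of them unreadable, and 0 columns of values stayed unmapped. Symbols are those of matched Strongylocentrotus purpuratus genes.

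A robust edgeR 4.0.16 quasi-likelihood model of 8 group means (R 4.3.3, TMM scaling) covered the 18419 genes that passed filterByExpr (minimum count 10) in 23 libraries. Benjamini-Hochberg adjustment ran over all of these, with 0.05 as the threshold. CPM use TMM library sizes and are not per length, so levels were not compared between genes. Alternatives were DESeq2 1.42.0, upper quartile scaling, no filter, a replicate block, only the groups compared and leaving out each library. The model was tested on simulated data.

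The genes, the 10 lists and the tests were chosen with earlier results of these data known, and the list symbols were rewritten after the table's names were seen, because name starts had matched unrelated genes. Genes reaching 1 CPM in a group mean were named, with up to 4 genes of a list by smallest adjusted p in a comparison and the 5 most like MyoR2 and Mlcka among genes reaching 2 CPM. One of the genes so chosen is not reported here. Correlations of deviations between same-lettered libraries were 0.503 to 0.663 at 30 hpf and −0.242 to 0.192 at other times, so letters were taken to pair libraries at 30 hpf alone.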

Additional observations from a re-analysis of the deposited data

Results flagged for a closer look

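The alizarin effect on Myh9/Myh10/Myh11 (L_var_17776), the myosin heavy chain gene, differed between the 4 times by an edgeR quasi-likelihood test of the difference itself (adjusted p = 0.0489 over all genes). Its mean level was 11.3 CPM in control and 19.4 CPM in alizarin libraries at 12 hpf, 36.1 and 33.1 CPM at 18 hpf, 114 and 63.0 CPM at 24 hpf, and 76.8 and 30.1 CPM at 30 hpf. The adjusted p lies just under the threshold of 0.05, and this test was not rerun with a library left out. Alizarin 24 hpf C, the library that stands apart, held 41.0 CPM, against 74.4 and 73.5 CPM in A and B.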

How the results depend on the processing

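The count of name-chosen genes called under alizarin was 0 at every time over all libraries, and moved as follows. It was 1 at 12 hpf by DESeq2 and 1 with the replicate block (both Tpmtl), 1 at 18 hpf by DESeq2, 2 at 30 hpf with only the groups compared, and 3 at 30 hpf with the replicate block in the 30 hpf libraries alone, an alternative added after the data were seen. Over the 4 times it was 3 by DESeq2 and 2 with the replicate block. Leaving out a library gave 0 to 1 at 12 hpf, 0 to 3 over the 4 times, 2 to 3 for controls from 12 to 18 hpf, 1 to 1 from 18 to 24 hpf, and 0 to 0 in the other comparisons. The count over the 4 times was 1 without control 12 hpf A or alizarin 30 hpf B, 2 without alizarin 24 hpf B and 3 without alizarin 24 hpf C. The contractile genes called lower were 4 by DESeq2 and 1 under upper quartile scaling, no filter or only the groups compared at 24 hpf, and 2 under upper quartile scaling, no filter or the replicate block, 7 with only the groups compared and 14 with the 30 hpf block (2 higher) at 30 hpf. Those rising from 12 to 18 hpf were 7 with only the groups compared. Leaving out a library gave 1 to 1 at 24 hpf, 0 to 1 at 30 hpf and 2 to 6 over the 4 times, and 10 to 11 and 4 to 6 rising at the control steps. Mesoderm regulators called lower were 3 by DESeq2 at 24 hpf, and 5 with only the groups compared and 7 with the 30 hpf block at 30 hpf, where 2 were higher. Leaving out a library gave 0 to 2 at 24 hpf, 1 to 1 at 30 hpf and 1 to 4 over the 4 times, and 5 to 6 and 3 to 3 rising. These list counts were rerun after they were seen. The causes were not tested. Of 1112 values of single genes under an alternative, 948 stayed the same, 138 lost a call, 21 gained one and 0 changed sign among those called. A tested value stayed the same if it kept its side of the threshold. A value with no test did so if it moved by no more than its standard error in the main fit, and 5 moved further. The depth limits MyoR2 before 24 hpf and MyoD at 12 hpf to a few reads.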
